A study of Mus musculus with 12 samples.

Results

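The effect of deleting the miR-17 motif from Pkd2 was averaged over noncystic and cystic mouse kidneys, to find the genes that moved alike in both disease states. All 12 mice of the RNA-seq experiment entered the comparison, 6 with the motif deleted against 6 with wild-type Pkd2, with the cystic state held in the model. The mice were 18 days old, on a C57BL/6 J background, and gave whole kidneys in 4 groups of 3. Noncystic Pkd2+/+ mice (mice 19 to 21, Pkd1 RC/F; Pkd2+/+) and noncystic Pkd2Δ17/Δ17 mice (mice 22 to 24, Pkd1 RC/F; Pkd2Δ17/Δ17) lacked Cre. Cystic Pkd2+/+ mice (mice 25 to 27, KspCre; Pkd1 RC/F; Pkd2+/+) and cystic Pkd2Δ17/Δ17 mice (mice 28 to 30, KspCre; Pkd1 RC/F; Pkd2Δ17/Δ17) also carried Ksp-Cre, a recombinase driven by the Ksp-cadherin promoter in tubule epithelium, which removes the floxed Pkd1 allele there. Thus every mouse, wild type for Pkd2 or not, carried the Pkd1 RC allele, a missense allele that lowers mature polycystin 1. The Δ17 allele was a germline allele made by CRISPR/Cas9 editing, whereas Pkd1 was lost only where Cre acted. The litters of the mice were not given.

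Pkd1 and Pkd2 encode polycystin 1 and polycystin 2, a large membrane receptor and a cation channel that form a complex in the primary cilium of kidney tubule cells, and mutations in either gene cause autosomal dominant polycystic kidney disease. microRNAs of the miR-17 family bind short motifs in the 3′-UTR of an mRNA through their seed and lower its stability and translation. The motif deletion removes such a binding site from Pkd2. In the mouse kidney, these microRNAs are expressed in the tubule epithelium and are raised in cystic disease.

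In the mouse genome build GRCm38, Pkd2 spans bases 104459450 to 104505819 of chromosome 5, plus strand. The 3′-UTR in its last exon, exon 15 of 15, is 2131 nucleotides long and holds 1 match to the miR-17 seed, whose first base is nucleotide 133 past the stop codon. The unedited reference sequence at chr5:104503810-104503839 is printed here with the 8-base match in capitals, because this is the site the deletion removes, next to the mature sequences of the family's members miR-17-5p, miR-20a-5p and miR-93-5p (RefSeq, GRCm38.p6), whose seeds, bases 2 to 8, are in capitals and pair with the match.
Pkd2 3′-UTR: tataattttctGCACTTTAatttattttac
miR-17-5p: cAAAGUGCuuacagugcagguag
miR-20a-5p: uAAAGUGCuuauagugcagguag
miR-93-5p: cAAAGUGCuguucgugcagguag
Of the mature mouse microRNAs of RefSeq, 7 carry this seed. Where the edited allele begins and ends was not analysed here.

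The counts summed to between 18800307 and 24453033 reads per mouse. Expression is given as CPM, counts per 1000000 reads with TMM factors for composition, and 24642 of 54532 genes passed the cutoff, an average log2CPM of at least -3. Kidney markers were present throughout, with an average log2CPM of 9.77 for Lrp2 of the proximal tubule, 10.55 for Slc12a1 of the thick ascending limb and 9.13 for Slc12a3 of the distal convoluted tubule. High Xist marked 3 of 6 Pkd2+/+ and 3 of 6 Pkd2Δ17/Δ17 mice as female, so sex was balanced over the average but not within a state, with 1 against 2 in noncystic and 2 against 1 in cystic mice. The summed CPM of 8 adrenal gland genes stayed between 4.15 and 7.37 in noncystic mice and reached 66.3 in 1 cystic Pkd2+/+ mouse and 485 in 1 cystic Pkd2Δ17/Δ17 mouse. In whole kidneys, fewer cells of a type and less RNA per cell cannot be told apart.

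Pkd2 was the only gene higher with the deletion among those past the threshold of the average effect, an adjusted p under 0.05 in the additive model. Its level was 217, 194 and 219 CPM in the noncystic Pkd2+/+ mice and 277, 286 and 270.5 CPM in the noncystic Pkd2Δ17/Δ17 mice. In cystic kidneys, Pkd2 stood at 232, 233 and 213 CPM with wild-type Pkd2 and at 337, 336 and 307 CPM with the motif deleted. Every Pkd2Δ17/Δ17 mouse was above every Pkd2+/+ mouse, within either state and across both. The average log2 fold change was 0.47 (standard error 0.056), or 38.3% more mRNA, at an adjusted p of 0.00298 (edgeR quasi-likelihood test, Benjamini-Hochberg adjustment over 24642 genes). An exact two-sided permutation test of the 12 mice within their states gave p = 0.005, the smallest that 400 arrangements allow. By state, the log2 fold change was 0.40 (standard error 0.078) in noncystic and 0.53 (0.077) in cystic kidneys, and the difference of 0.13 had a standard error of 0.11 and an adjusted p of 0.819 (edgeR).

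Pkd1, whose own 3′-UTR motif was left intact in these mice, did not pass the test on average. Its level was 62.7, 50.4 and 65.7 CPM in noncystic Pkd2+/+, 63.0, 77.5 and 68.8 CPM in noncystic Pkd2Δ17/Δ17, 76.4, 72.1 and 66.0 CPM in cystic Pkd2+/+ and 81.6, 67.4 and 70.9 CPM in cystic Pkd2Δ17/Δ17 mice, with overlapping groups in both states. The average log2 fold change was 0.13 (standard error 0.078, edgeR adjusted p = 0.498), and the 3′ end of Pkd1 overlaps Tsc2 on the opposite strand.

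**Figure D1:**
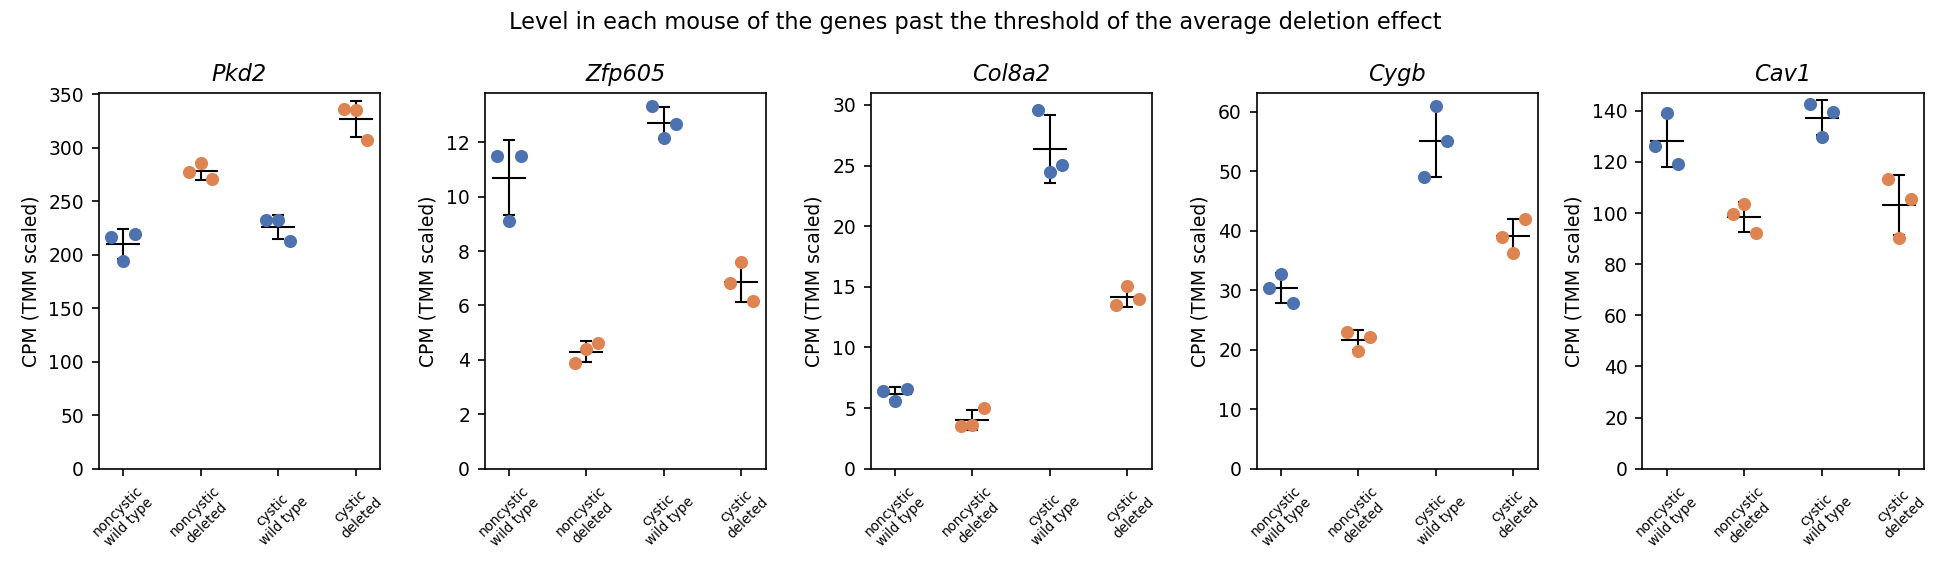
Level of Pkd2, Zfp605, Col8a2, Cygb and Cav1 in each mouse, in CPM scaled with TMM factors on a linear axis from 0, by group (points: mice; black bars: mean and SD of 3 mice; blue: Pkd2+/+; orange: Pkd2Δ17/Δ17). In each panel and each state the 3 Pkd2Δ17/Δ17 mice lie on one side of the 3 Pkd2+/+ mice, above them for Pkd2 and below them for the other genes.

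Beside Pkd2, 4 genes passed the threshold of the average effect, and all of them fell. They were Zfp605, a KRAB-type zinc finger gene, Col8a2, which encodes a chain of the short-chain collagen VIII, Cygb, the globin cytoglobin of fibroblast-like and perivascular cells, and Cav1, caveolin 1 of the membrane pits called caveolae. These 5 genes were 0.0203% of those tested. All 5 had the same sign in both states, as did 95.8% of the 3318 genes at an unadjusted p under 0.05 on average. All 5 were also called in cystic kidneys alone, Zfp605 was called in noncystic kidneys alone as well, and none was called by the interaction test.

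Zfp605 showed the largest fold change of the 5 genes. This gene was measured at 11.5, 9.12 and 11.5 CPM in noncystic Pkd2+/+ and at 3.87, 4.42 and 4.62 CPM in noncystic Pkd2Δ17/Δ17 mice. The cystic mice had 13.3, 12.1 and 12.7 CPM with wild-type Pkd2 and 6.83, 7.58 and 6.16 CPM without the motif. No Pkd2Δ17/Δ17 mouse of either state reached the lowest Pkd2+/+ mouse of any group, and the average log2 fold change was -1.09 (standard error 0.11, edgeR adjusted p = 9.32e-04), or 53.1% less mRNA. In noncystic kidneys the log2 fold change was -1.31 and in cystic kidneys -0.89. Zfp605 lies on chromosome 5, from 110110092 to 110129794, at 5.60 Mb from Pkd2. Gm15484 overlaps it on the opposite strand with 46 reads in all mice together.

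Col8a2 fell in both states from very different levels, as cystic kidneys held more of its mRNA. Its level was 6.39, 5.59 and 6.61 CPM in noncystic Pkd2+/+ and 3.54, 3.60 and 5.01 CPM in noncystic Pkd2Δ17/Δ17 mice. Cystic Pkd2+/+ mice had 29.6, 24.5 and 25.1 CPM and cystic Pkd2Δ17/Δ17 mice 13.5, 15.1 and 14.0 CPM. The groups did not overlap in either state, and the average log2 fold change was -0.78 (standard error 0.11, edgeR adjusted p = 0.0123), beside a log2 fold change of 1.96 between the cystic and the noncystic state in the same mice.

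Cygb fell on average, by nearly the same amount in both states. Cygb was at 30.4, 32.8 and 27.8 CPM in noncystic Pkd2+/+ and at 22.9, 19.8 and 22.1 CPM in noncystic Pkd2Δ17/Δ17 mice. In cystic kidneys its level was 49.1, 61.0 and 55 CPM with wild-type Pkd2 and 39.0, 36.2 and 42.0 CPM with the deletion. The log2 fold change was -0.49 in noncystic and -0.49 in cystic kidneys without overlap, and -0.49 on average (standard error 0.07, edgeR adjusted p = 0.0159). Its neighbour Prcd overlaps it on the opposite strand with 131 reads in all.

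Cav1 lay closest to the threshold. The noncystic Pkd2+/+ mice had 126, 139 and 119 CPM and the noncystic Pkd2Δ17/Δ17 mice 99.8, 103 and 92.1 CPM. For cystic kidneys the values were 143, 129.8 and 139.6 CPM with wild-type Pkd2 and 113, 90.2 and 106 CPM without the motif. The groups did not overlap in either state, and Cav1 fell by 0.40 on the log2 scale on average (standard error 0.062, edgeR adjusted p = 0.0356). Between the cystic and the noncystic state, the log2 fold change of Cav1 was 0.083 (edgeR adjusted p = 0.335).

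Pkd2 and Zfp605 held their calls in 10 alternatives of fit, scaling, cutoff and adjusted p and without any single mouse, though Pkd2 falls short of a 1.5-fold change, whereas Col8a2, Cygb and Cav1 did not. Cav1 missed the threshold with limma-trend (adjusted p = 0.0615), with library totals in edgeR (0.0581) and without mouse 19, 20, 23, 24, 25, 27, 29 or 30 (0.0548 to 0.124, edgeR). Cygb missed it without mouse 19, 23, 27 or 29 (edgeR adjusted p = 0.0548 to 0.0808), and Col8a2 without mouse 27, 29 or 30 (0.0558 to 0.0646).

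The number of genes called on average depended on the model. The additive model counts a difference of the deletion effect between the states as spread, and with it 5 genes passed, 1 higher and 4 lower. Averaging both state effects in a fit with one mean per group leaves such a difference out of the spread, and with it 109 genes passed (0.442%), 62 higher and 47 lower, the 5 genes among them. Of these 109 genes, 100 were called in cystic kidneys alone, 9 in neither state alone, and 66 had an unadjusted interaction p under 0.05. DESeq2's Wald test of the additive model called 485 genes, 211 higher and 274 lower, and left 11480 genes without an adjusted p. Leaving out a single mouse changed the count of 5 to 71 without mouse 21, 38 without mouse 22, 3 without mouse 19, 23 or 30, and 2 without mouse 27 or 29. At an unadjusted p under 0.05, 1566 genes (6.36%) were higher and 1752 (7.11%) lower on average.

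A further 23 genes had an adjusted p between 0.05 and 0.1, which makes 28 genes (0.114%) below 0.1, 8 higher and 20 lower. They did not pass the threshold and were singled out after their values were seen. In 23 of the 28 genes the groups did not overlap in either state, against 380 genes (1.54%) among all tested. The 28 genes were picked for a small p in the same mice, which favours groups that do not overlap, so this count only describes them. The 28 genes are drawn in the plot of both state effects by gene.

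**Figure D2:**
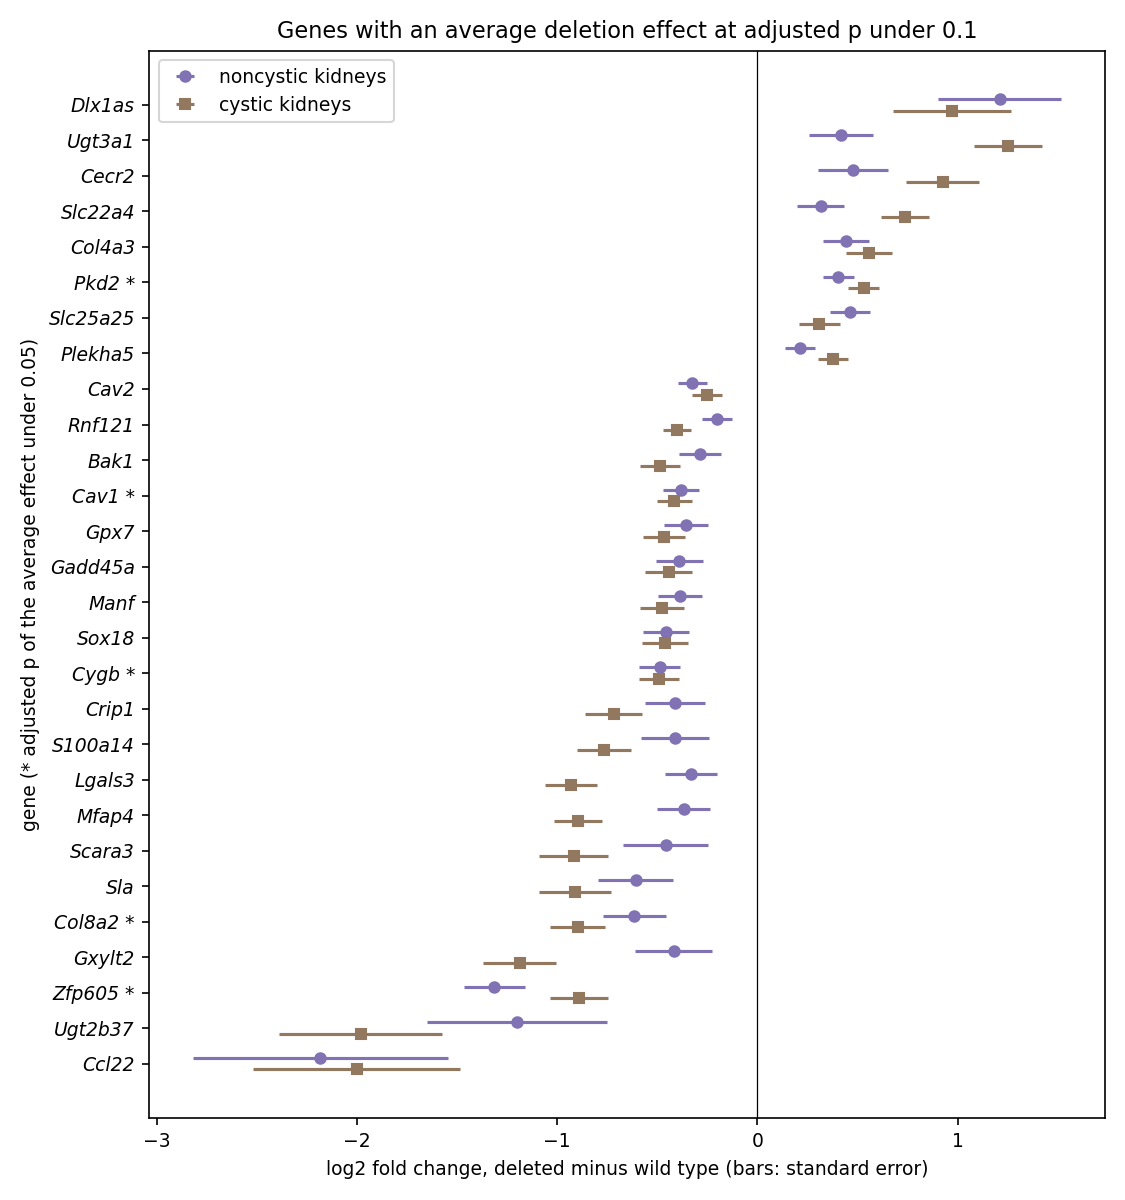
Log2 fold change of the deletion in noncystic (circles) and in cystic kidneys (squares) with standard errors, for the 28 genes with an adjusted p of the average effect under 0.1 (asterisks: under 0.05). Every gene has both values on the same side of 0, and for most of the genes lower than Cygb the cystic value lies further out, with Zfp605 and Ccl22 as exceptions.

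Of these 23 genes, Mfap4, Cav2, Sox18 and Scara3 had values below 0 in both states. Mfap4, a microfibril protein of elastic fibres, was at 20.1, 22.1 and 16.1 CPM in noncystic Pkd2+/+ and 14.8, 14.6 and 15.6 CPM in noncystic Pkd2Δ17/Δ17 mice. In cystic kidneys Mfap4 was at 98.4, 99.1 and 96.0 CPM and, with the deletion, at 41.9, 55.8 and 60.1 CPM, so that the groups did not overlap in either state (average log2 fold change -0.66, edgeR adjusted p = 0.0536). Reads of Mapk7, which overlaps Mfap4 on the opposite strand, had an average log2 fold change of -0.065. Cav2, caveolin 2, lies beside Cav1 on chromosome 6 and was lower in both states, with log2 fold changes of -0.32 in noncystic and -0.25 in cystic kidneys (edgeR adjusted p = 0.0755). Sox18, a transcription factor of endothelial cells, had log2 fold changes of -0.46 in noncystic and -0.46 in cystic kidneys (edgeR adjusted p = 0.0752). Scara3, a scavenger receptor family member, gave -0.46 in noncystic and -0.92 in cystic kidneys.

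Col4a3, a chain of the collagen IV of the glomerular basement membrane, was the gene nearest to the threshold and was higher with the deletion. Its level was 283, 241 and 258 CPM in noncystic Pkd2+/+, 318, 376 and 372 CPM in noncystic Pkd2Δ17/Δ17, 158, 174 and 129 CPM in cystic Pkd2+/+ and 254, 226 and 199.6 CPM in cystic Pkd2Δ17/Δ17 mice. The groups did not overlap in either state, and the average log2 fold change was 0.50 (standard error 0.081, edgeR adjusted p = 0.0505). Col4a3 passed the threshold in 10 of 22 alternatives and missed it in the other 12. Among those it passed were limma-trend (adjusted p = 0.0488) and Xist as a covariate in edgeR (0.0335).

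The other 6 of the genes above 0 have roles in transport, metabolism and transcription, among others. Slc22a4, an organic cation transporter, had a log2 fold change of 0.32 in noncystic and 0.74 in cystic kidneys (edgeR adjusted p = 0.0755). Slc25a25, a mitochondrial carrier of ATP and phosphate, was at 109.7, 116 and 129 CPM in noncystic Pkd2+/+ and 176, 153 and 160.1 CPM in noncystic Pkd2Δ17/Δ17 mice, and its cystic groups were at 60.0, 46.8 and 57.8 CPM and 71.2, 60.5 and 72.2 CPM without overlap. Ugt3a1, a glycosyltransferase, had log2 fold changes of 0.42 in noncystic and 1.25 in cystic kidneys. Cecr2, a bromodomain protein of chromatin remodelling, gave 0.48 in noncystic and 0.92 in cystic kidneys, and Plekha5, a pleckstrin homology domain protein, 0.21 in noncystic and 0.38 in cystic kidneys. Dlx1as, an RNA antisense to Dlx1, was higher by 1.09 on average from only 10 to 32 reads per mouse, and Dlx1 itself had 17 reads in all mice together.

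The rest of the genes below 0 include genes of immune cells, stress responses and the secretory pathway. Lgals3, galectin 3, had log2 fold changes of -0.33 in noncystic and -0.93 in cystic kidneys (edgeR adjusted p = 0.0755), and its noncystic groups overlapped. Sla, an adaptor of antigen receptor signalling, was at 3.89, 3.37 and 3.66 CPM in noncystic Pkd2+/+ and 2.45, 2.29 and 2.42 CPM in noncystic Pkd2Δ17/Δ17 mice, and at 6.54, 5.88 and 5.13 CPM against 2.88, 3.13 and 3.32 CPM in the cystic groups. The chemokine Ccl22 had 1 to 40 reads per mouse and a log2 fold change of -2.07 on average, the lowest of the 28 genes. Manf, a factor of the endoplasmic reticulum stress response that overlaps Dcaf1 and Rbm15b, gave -0.39 in noncystic and -0.47 in cystic kidneys. Gpx7, a peroxidase of the endoplasmic reticulum, gave -0.36 in noncystic and -0.46 in cystic kidneys, and Rnf121, a ubiquitin ligase of the secretory pathway, -0.20 in noncystic and -0.40 in cystic kidneys. Bak1, which permeabilizes mitochondria in apoptosis, and Gadd45a, which is induced by DNA damage, had average log2 fold changes of -0.39 and -0.42. The remaining genes were S100a14 (-0.63 on average), Crip1 (-0.57), Gxylt2 (-0.83) and Ugt2b37 (-1.64, from 4 to 43 reads per mouse). By state, noncystic before cystic, S100a14 had -0.41 and -0.77, Crip1 -0.41 and -0.72, Gxylt2 -0.42 and -1.19, and Ugt2b37 -1.20 and -1.98. The noncystic groups of Manf, S100a14, Crip1 and Gxylt2 overlapped, as those of Lgals3 did.

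The likeness of the noncystic and cystic deletion effects was then described over all genes, since both comparisons rest on different mice. Among the 13846 genes whose average log2CPM was 1 or more, 8190 (59.2%) had the same sign in both states, with Pearson's r of 0.256 and Spearman's rho of 0.244 across genes, which share libraries and are not independent. In cystic kidneys 549 genes (2.23%) passed the threshold, 293 higher and 256 lower, a count that became 130 without mouse 27, 127 without mouse 28, 118 without mouse 29 and 861 without mouse 25. Of these 549 genes, 371 (67.6%) had the same sign in noncystic kidneys, and 45 of them an unadjusted noncystic p under 0.05 with the same sign against 6 with the opposite sign, beside 1555 genes (6.31%) at that p among all tested. The 293 genes called higher in cystic kidneys had a median log2 fold change of 0.63 there and of 0.062 in noncystic kidneys, and the 256 called lower had -0.68 and -0.079. Both noncystic medians lay on the side of the cystic ones and closer to 0.

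No gene passed the combined test, which takes the larger of both unadjusted p-values and adjusts it anew over all genes (edgeR). In it Zfp605 had an adjusted p of 0.319. Adjusted within each state, Zfp605 passed in both, at 0.00446 in noncystic and 0.00477 in cystic kidneys (edgeR). At an unadjusted p under 0.05 in each state with the same sign there were 224 genes (0.909%), 92 higher and 132 lower, and 56 further genes had opposite signs. DESeq2 called 2 genes in both states, Pkd2 (adjusted p = 0.00151) and Zfp605 (0.000257). In noncystic kidneys alone 1 gene, Zfp605, passed in edgeR, DESeq2 called 3, and edgeR none without mouse 19 or 22 and 2 without mouse 21 or 28.

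**Figure D3:**
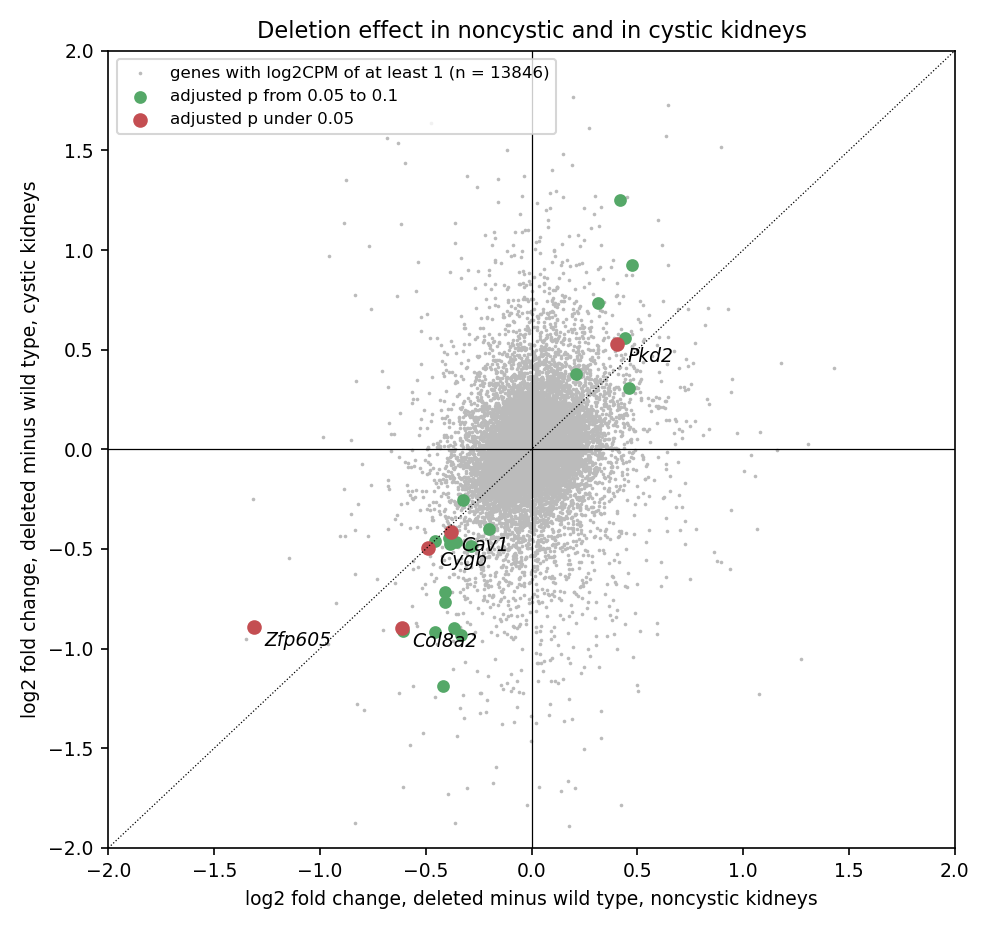
Log2 fold change of the deletion in noncystic kidneys (horizontal) against cystic kidneys (vertical) for 13846 genes, those whose average log2CPM was 1 or more (24 lie outside the axes), with the genes past an adjusted p of 0.05 (red, named) and between 0.05 and 0.1 (green). Pkd2, Cygb and Cav1 lie near the dotted line of equal effects, Zfp605 further out in noncystic kidneys and Col8a2 further out in cystic kidneys.

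Gene lists of kidney cell types and pathways were set beside these counts, each described by its members and its median. The lists were chosen with earlier results of these data known, so their counts describe these mice and are not an independent test. Over all genes tested the median log2 fold change was 0.0018 on average, 0.0074 in noncystic and 0.00075 in cystic kidneys. Apart from Pkd2, no member of the 26 lists passed the threshold of the average effect, so the lists are counted at an unadjusted p under 0.05, a p that 6.36% of all genes reached on the higher and 7.11% on the lower side. Irrespective of p, 12412 of the 24642 genes were higher on average and 12230 lower.

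Elastic fibre genes lay mostly lower with the deletion. Of 16 elastic fibre genes, 15 were lower on average, 8 of them at an unadjusted p under 0.05 (7.11% of all genes) and 1 gene higher at that p, and the median log2 fold change was -0.22, -0.21 in noncystic and -0.23 in cystic kidneys. Their summed level was 1146 to 1248 CPM in noncystic Pkd2+/+ against 1005 to 1093 CPM in noncystic Pkd2Δ17/Δ17 mice, and 2052 to 2221 against 1516 to 1656 CPM in cystic mice, without overlap in either state. Loxl1, which crosslinks elastin, had log2 fold changes of -0.29 in noncystic and -0.45 in cystic kidneys. Eln, elastin itself, was at 265, 281 and 208 CPM in noncystic Pkd2+/+ and 229, 210 and 192 CPM in noncystic Pkd2Δ17/Δ17 mice, which overlapped, and at 878, 677 and 659 against 307, 341 and 376 CPM in cystic mice, which did not. The average edgeR adjusted p was 0.107 for Loxl1 and 0.109 for Eln.

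Of 18 fibroblast and collagen genes, 16 were lower on average, 6 of them at an unadjusted p under 0.05 (7.11% of all genes) and 1 gene higher at that p, and the median was -0.17, with -0.15 in noncystic and -0.16 in cystic kidneys. Vim, the intermediate filament protein vimentin, had the smallest p of this list, at 185, 187 and 170.5 CPM in noncystic Pkd2+/+, 168, 160.1 and 145 CPM in noncystic Pkd2Δ17/Δ17, 306, 346 and 335 CPM in cystic Pkd2+/+ and 255, 259.5 and 256 CPM in cystic Pkd2Δ17/Δ17 mice (average log2 fold change -0.28, edgeR adjusted p = 0.117). Its groups did not overlap in either state. Col6a2 and Col1a1, chains of collagen VI and collagen I, had average log2 fold changes of -0.27 and -0.33 with noncystic groups that overlapped. The summed level of the list was 3249 to 3380 CPM in noncystic Pkd2+/+ and 2827 to 3216 CPM in noncystic Pkd2Δ17/Δ17 mice, and overlapped between the cystic groups.

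Of 12 myofibroblast and mural cell genes, 11 were lower on average and 4 at an unadjusted p under 0.05 (7.11% of all genes), none higher at that p, with medians of -0.17 in noncystic and -0.27 in cystic kidneys. Tpm2, a tropomyosin of contractile cells, had log2 fold changes of -0.39 in noncystic and -0.38 in cystic kidneys, and Acta2, smooth muscle actin, of -0.30 in noncystic and -0.41 in cystic kidneys. None of the 12 had an unadjusted interaction p under 0.05, a p that 2053 genes (8.33%) reached among all tested. The count was 2 of 18 for the fibroblast and collagen genes and 5 of 16 for the elastic fibre genes. For lists this small, none of 12 and 2 of 18 are near that share. Of 13 endothelial genes 3 were higher and none lower at an unadjusted p under 0.05 on average, against 6.36 and 7.11% of all genes. The medians of the endothelial list were -0.077 and 0.10, and its summed level overlapped between the groups in both states.

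Proximal tubule genes lay mostly higher with the deletion, with a larger median in cystic kidneys. Of 22 proximal tubule genes, 20 were higher on average, 9 of them at an unadjusted p under 0.05 (6.36% of all genes) and none lower at that p, with medians of 0.15 in noncystic and 0.30 in cystic kidneys. Their summed level was 23440 to 24280 CPM in noncystic Pkd2+/+ and 24380 to 25810 CPM in noncystic Pkd2Δ17/Δ17 mice, and 8333 to 10580 against 10820 to 13020 CPM in cystic mice, without overlap in either state. Lrp2 and Cubn, the endocytic receptors megalin and cubilin, had noncystic log2 fold changes of 0.15 and 0.17 and cystic ones of 0.64 and 0.59 (average edgeR adjusted p = 0.192 and 0.195). Slc6a19, a neutral amino acid transporter, had 0.29 in noncystic and 0.56 in cystic kidneys. Of the 22 genes 8 had an unadjusted interaction p under 0.05 (8.33% of all genes).

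Thick ascending limb genes showed a median of -0.004 in noncystic and 0.64 in cystic kidneys. On average 9 of 15 were higher and 1 lower at an unadjusted p under 0.05, against 6.36 and 7.11% of all genes, and 5 of the 15 passed the threshold in the fit with one mean per group, which called 0.442% of all genes. Egf, the growth factor made in this segment, was at 1796, 1598 and 1860 CPM in noncystic Pkd2+/+ and 1855, 2539 and 2151 CPM in noncystic Pkd2Δ17/Δ17 mice, which overlapped, and at 267, 167 and 194 against 432, 516 and 418 CPM in cystic mice, which did not. Slc12a1, the sodium, potassium and chloride cotransporter, was at 1748, 1557 and 1716 and 1733, 1979 and 1820 CPM in the noncystic groups and at 886, 942 and 735 and 1607, 1727 and 1538 CPM in the cystic groups. Its interaction had an edgeR adjusted p of 0.0745. Umod, uromodulin, gave 0.15 in noncystic and 0.55 in cystic kidneys. In this list 8 genes had an unadjusted interaction p under 0.05, which 8.33% of all genes reached.

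For podocytes the medians were 0.046 and 0.31, and 3 of 12 genes, Podxl, Ptpro and Magi2, were higher and none lower on average at an unadjusted p under 0.05, which 6.36% of all genes reached on the higher side. Distal convoluted tubule genes had medians of 0.019 and 0.15 with none of 14 at that p, and Slc12a3, the thiazide-sensitive cotransporter, had 0.34 in noncystic and 0.28 in cystic kidneys. Intercalated cell genes had -0.013 and -0.011, with Kit lower at that p (-0.29 on average).

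Collecting duct principal cell genes were on the lower side, 13 of 14 on average and 7 at an unadjusted p under 0.05, which 7.11% of all genes reached on that side. The median was -0.03 in noncystic and -0.51 in cystic kidneys, and 7 of the 14 genes had an unadjusted interaction p under 0.05 (8.33% of all genes). Hsd11b2, which inactivates glucocorticoids, had -0.15 in noncystic and -0.53 in cystic kidneys, and Scnn1g and Fxyd4, a subunit of the sodium channel ENaC and a regulator of the sodium pump, had average log2 fold changes of -0.31 and -0.40.

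**Figure D4:**
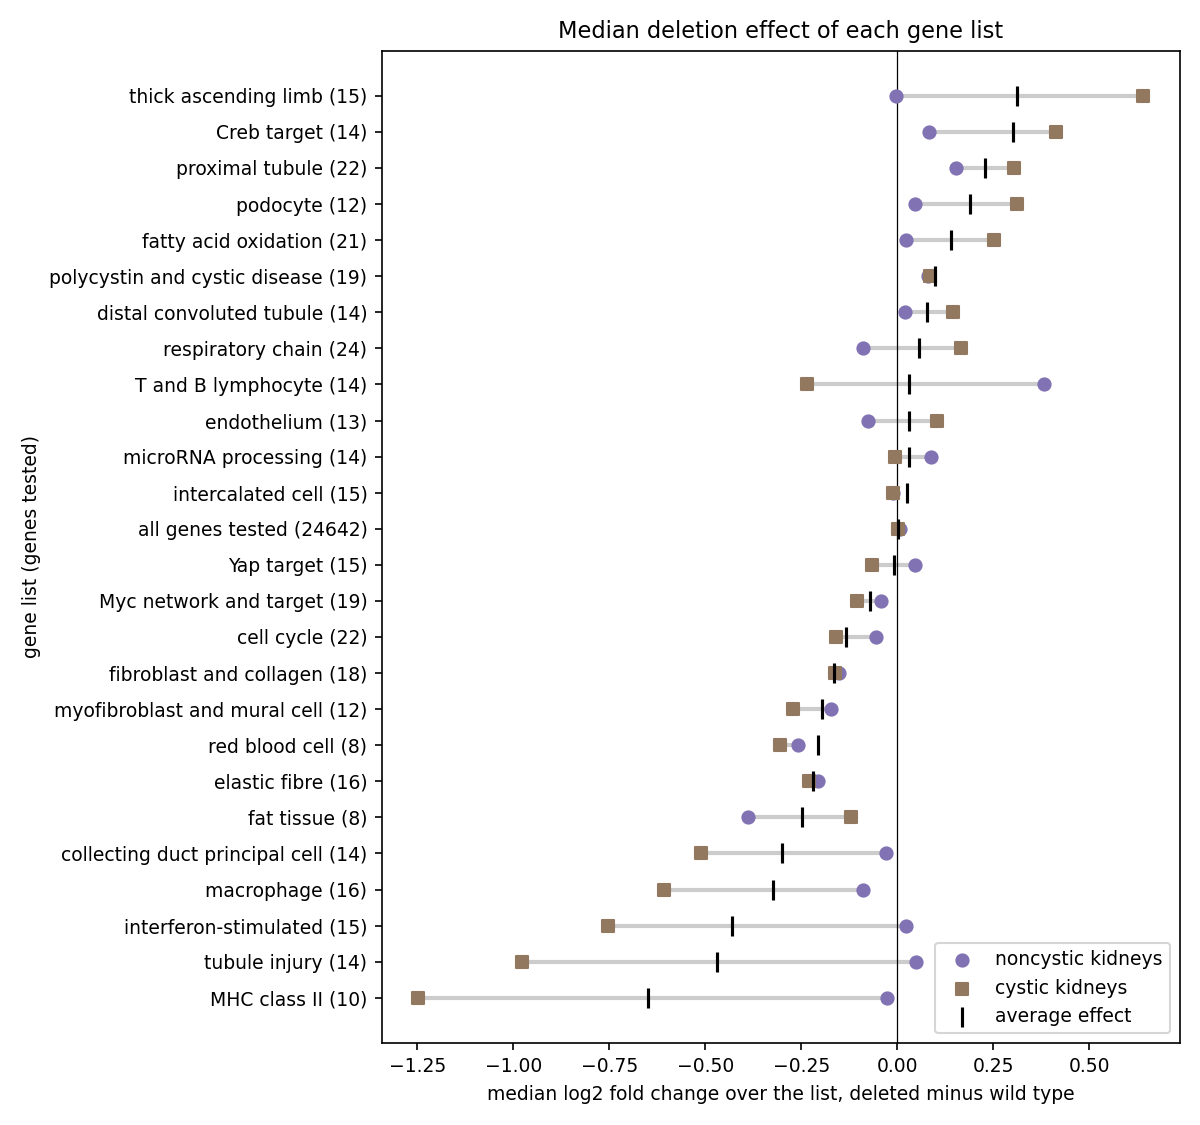
Median log2 fold change of the deletion over the genes of each list in noncystic kidneys (circles), in cystic kidneys (squares) and on average (vertical ticks), for 25 lists and all genes tested, with the number of genes tested in parentheses. The adrenal gland list, with a median of 2.71 on average, is not drawn. The fibroblast and elastic fibre lists have both medians close together below 0, whereas the MHC class II, tubule injury and interferon lists have a noncystic median near 0 and a cystic median far below it.

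Immune and injury lists had lower medians in cystic than in noncystic kidneys. The 10 MHC class II genes had a median of -0.027 in noncystic and -1.25 in cystic kidneys. Of these genes 8 had an unadjusted interaction p under 0.05, against 8.33% of all genes tested. H2-Ab1, a chain of the antigen-presenting MHC class II molecule, was among the 3 genes past the interaction test, with -0.0026 in noncystic and -1.46 in cystic kidneys. Of 14 tubule injury genes all were lower on average, 5 at an unadjusted p under 0.05 (7.11% of all genes), yet 11 were higher in noncystic kidneys, and the medians were 0.048 and -0.98. Vcam1, an adhesion molecule, had a log2 fold change of -0.52 on average and -0.046 in noncystic kidneys, and the chemokine Ccl2 had 0.043 in noncystic and -1.61 in cystic kidneys. Interferon-stimulated genes had medians of 0.021 and -0.75, and Oas1a, an antiviral enzyme, had 0.022 in noncystic and -1.37 in cystic kidneys. In each of these lists the noncystic median lay near 0. An unadjusted interaction p under 0.05 was reached by 9 of the 14 tubule injury genes and by 7 of the 15 interferon-stimulated genes.

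Macrophage genes were lower on average in 15 of 16 cases, 8 at an unadjusted p under 0.05 (7.11% of all genes), with medians of -0.089 in noncystic and -0.61 in cystic kidneys. Of the 16 genes 9 had an unadjusted interaction p under 0.05, against 8.33% of all genes. C1qb, a complement chain made by macrophages, had log2 fold changes of -0.30 in noncystic and -0.87 in cystic kidneys. Mrc1, a macrophage mannose receptor, was at 12.1, 10.2 and 11.3 CPM in noncystic Pkd2+/+ and 13.7, 12.3 and 8.91 CPM in noncystic Pkd2Δ17/Δ17 mice, and at 36.9, 47.7 and 40.0 against 29.6, 26.9 and 31.6 CPM in cystic mice, with an average log2 fold change of -0.25 (edgeR adjusted p = 0.387). The cystic groups did not overlap and the noncystic groups did. Lymphocyte genes had medians of 0.38 and -0.23 at a summed level of at most 30.6 CPM.

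Myc, Yap1, Creb1 and Mettl3, whose products the study followed in kidneys or in kidney cell lines, did not pass the average test here. The study reported less c-Myc and Yap1 protein in cystic Pkd2Δ17/Δ17 kidneys. In its edited cell lines Mettl3 and phosphorylated Creb1 were lower as well. The values here are mRNA, and the average is over both states, so they are not the same measure. Myc, a growth-promoting transcription factor, was at 12.8, 16.4 and 15.5 CPM in noncystic Pkd2+/+, 12.8, 14.2 and 16.8 CPM in noncystic Pkd2Δ17/Δ17, 28.9, 36.1 and 35.3 CPM in cystic Pkd2+/+ and 26.4, 24.8 and 28.8 CPM in cystic Pkd2Δ17/Δ17 mice (average log2 fold change -0.18, edgeR adjusted p = 0.422). Its cystic groups did not overlap and its noncystic groups did. Yap1, an effector of the Hippo pathway, had an average log2 fold change of -0.024 (standard error 0.054), Creb1, a transcription factor of cyclic AMP signalling, of -0.12 (0.057), and Mettl3, the writer of m6A on RNA, of -0.0062 (0.088). The sign for Mettl3 changed with library totals in place of TMM factors and without mouse 21, 22, 25, 29 or 30, and Tox4 overlaps Mettl3 on the opposite strand.

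Lists of genes downstream of these factors were described in the same way. Of 14 Creb targets, 6 were higher on average at an unadjusted p under 0.05 and none lower, against 6.36 and 7.11% of all genes, with medians of 0.082 and 0.41. Sik1, a kinase induced by cyclic AMP, had 0.22 in noncystic and 0.41 in cystic kidneys. Nr4a1, an immediate early nuclear receptor, was at 19.9, 12.2 and 8.44 CPM in noncystic Pkd2+/+ and 14.7, 31.8 and 16.5 CPM in noncystic Pkd2Δ17/Δ17 mice, which overlapped, and at 20.8, 18.2 and 15.8 against 27, 41.5 and 94.4 CPM in cystic mice, which did not. The 94.4 CPM came from mouse 30, which also had the highest level of the adrenal gene Cyp11b2. The part of adrenal tissue in the Nr4a1 values was not tested. Of 19 Myc network and target genes, 5 were lower and 1 higher at that p, among the lower ones the nucleolar proteins Fbl (-0.16 in noncystic and -0.23 in cystic kidneys), Nop58 and Npm1. Yap targets had medians of 0.046 and -0.066, with F3, tissue factor, lower at -0.34 on average.

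Cell cycle genes were lower in 21 of 22 cases on average, none at an unadjusted p under 0.05, with medians of -0.055 and -0.16. Fatty acid oxidation genes were higher in 20 of 21 cases, 7 at that p (6.36% of all genes), with medians of 0.023 and 0.25. Ehhadh, a peroxisomal enzyme, and Cpt1a, which starts mitochondrial fatty acid uptake, had log2 fold changes of 0.45 in noncystic and 0.41 in cystic kidneys for Ehhadh and 0.19 in noncystic and 0.22 in cystic kidneys for Cpt1a. Acaa1b, a peroxisomal thiolase, had 0.22 in noncystic and 0.54 in cystic kidneys. Respiratory chain genes had medians of -0.091 and 0.17, that is, of opposite sign. Of these 24 genes, 11 had an unadjusted interaction p under 0.05, against 8.33% of all genes. MicroRNA processing genes had none of 14 at an unadjusted p under 0.05 on average, with Dicer1, which cuts microRNA precursors, at 0.10 (standard error 0.05).

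Within the polycystin and cystic disease list, 19 genes were tested, 12 higher and 7 lower on average, with a median of 0.097. At an unadjusted p under 0.05, 2 were higher, Pkd2 among them, and 2 lower, against 6.36 and 7.11% of all genes. Beside Pkd2, Dnajb11 and Alg9 had the smallest p on average, a cochaperone and a glycosyltransferase of the endoplasmic reticulum whose mutations cause cystic kidneys in people. Dnajb11 was at 148, 144 and 142 CPM in noncystic Pkd2+/+ and 138, 124 and 122 CPM in noncystic Pkd2Δ17/Δ17 mice, and at 139, 139.9 and 148 against 124, 126 and 116 CPM in cystic mice, without overlap in either state. Alg9 had log2 fold changes of -0.27 in noncystic and -0.18 in cystic kidneys, also without overlap. Neither passed the threshold, with an edgeR adjusted p of 0.156 for Dnajb11 and 0.166 for Alg9, and 1110032A03Rik overlaps Alg9 on the opposite strand.

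Lists of tissue that a dissection could add gave these values. Of 8 red blood cell genes tested none was at an unadjusted p under 0.05, with medians of -0.26 and -0.31 and summed levels that overlapped in noncystic mice (623 to 997 against 456 to 1104 CPM). All 8 fat tissue genes were lower on average, Retn at an unadjusted p under 0.05 (7.11% of all genes), with medians of -0.39 and -0.12. All 8 adrenal gland genes were higher on average, 3 at an unadjusted p under 0.05 (6.36% of all genes). Cyp11b2, which makes aldosterone, was at 36.1 CPM in mouse 30 and at most 1.98 CPM in the others. Without mouse 30, the log2 fold change of Cyp11b2 turned from 4.01 to -1.78. Their part in the results above was not tested.

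Since Zfp605 and Pkd2 share a chromosome, the genes around Pkd2 were counted. Every Pkd2Δ17/Δ17 mouse was homozygous for the edited allele. A sequence difference linked to this allele would split the mice as the deletion does and cannot be told apart from it. Such a difference was not tested. Within 10 Mb of Pkd2 on chromosome 5, 252 genes other than Pkd2 were tested, and Zfp605 alone passed the threshold. At an unadjusted p under 0.05, 46 genes, 15 higher and 31 lower, made 18.3%, against 13.5% of all genes tested. In both states at that p with the same sign were 3 genes (1.19%, against 0.909%), namely Zfp605, Cmklr1 and Asphd2. Cmklr1, the chemerin receptor, lies 9.11 Mb from Pkd2 and had log2 fold changes of -0.36 in noncystic and -0.39 in cystic kidneys. Asphd2, a putative hydroxylase, lies 7.88 Mb away and had -0.84 in noncystic and -0.63 in cystic kidneys, from 10 to 127 reads per mouse. The median average log2 fold change of the 252 genes was -0.011.

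**Figure D5:**
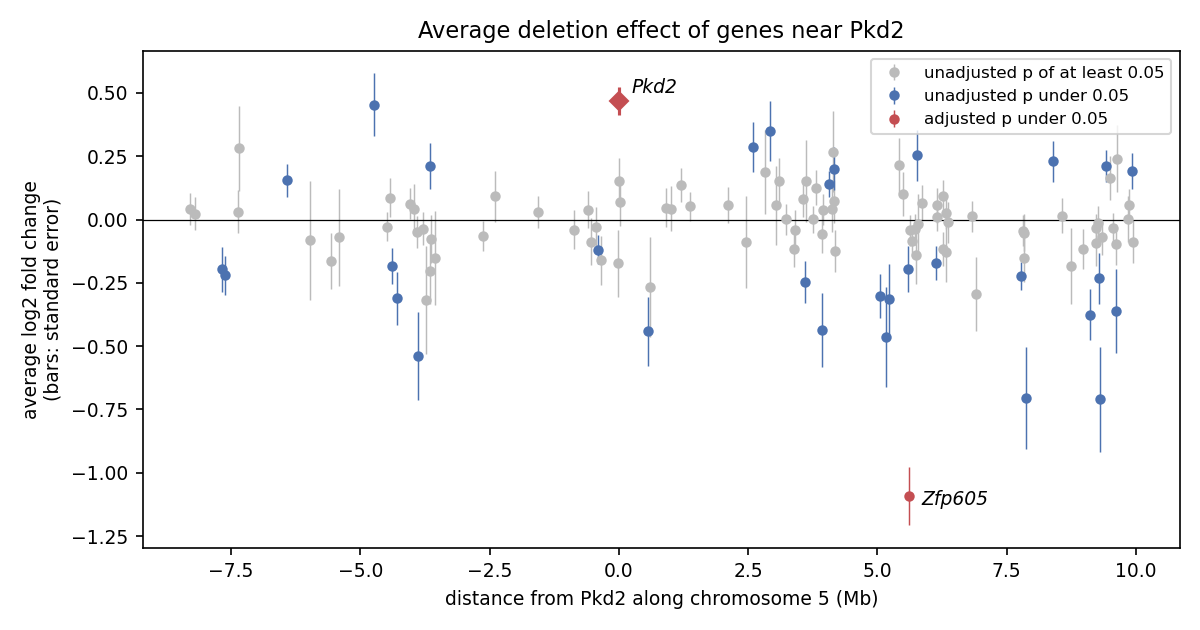
Average log2 fold change of the deletion (vertical, with standard error) against the distance from Pkd2 in Mb (horizontal) for the 117 genes within 10 Mb on chromosome 5 whose average log2CPM was 1 or more, and for Pkd2 itself at 0. Zfp605 lies apart at 5.60 Mb and -1.09, and the other genes lie between -0.71 and 0.45.

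Genes with a miR-17 seed match were described last, with Pkd2 itself counted among those with the 8-base match. The sites of the other genes were left in place. Of the expressed genes, those at a log2CPM of 1 or more, 589 held the 8-base match GCACTTTA in their longest 3′-UTR and 1367 the 7 bases GCACTTT without it, read on the strand of the transcript. The median log2 fold change of the 589 genes was 0.020 on average, 0.026 in noncystic and 0.0068 in cystic kidneys, that of the 1367 genes 0.025 on average, and that of 11088 genes without a match -0.0074. At an unadjusted p under 0.05, 11.5% of the 589 genes were higher and 8.49% lower, against 8.51 and 11.1% of the genes without a match. The sets differ in the median length of the 3′-UTR, 2873 against 1197 nucleotides. Of the 5 genes past the threshold, Pkd2 holds the 8-base match and Cygb the 7 bases only, while the longest 3′-UTRs of Zfp605, Col8a2 and Cav1 hold neither. Among the 23 genes that followed, Col4a3 holds the 8-base match and Manf and Gxylt2 the 7 bases.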

How the data were processed

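RNA-seq of whole kidneys from 12 mice was analysed. Per the methods of the study and the submitters' processing notes, the authors trimmed reads with Trim Galore 0.6.3, aligned them to GRCm38 with STAR 2.5.3a and deposited read counts for each gene of Ensembl release 94, without normalization. The strand column is not given in the sources used here, so overlapping genes are named as uncertain. Of 54532 gene identifiers, 54495 matched GENCODE M21; 343 without a name held 0.0225% of reads.

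Counts were tested in R 4.3.3 with edgeR 4.0.16 (quasi-likelihood test, TMM factors, Benjamini-Hochberg adjustment, threshold 0.05). The average deletion effect was the deletion term of an additive model of state and deletion (9 residual degrees of freedom). State effects and their interaction came from one mean per group (8). log2CPM used a prior count of 2. The median standard error of the average effect was 0.081 for the 13846 genes with log2CPM of at least 1. Levels were CPM with TMM factors. p-values measure the spread between mice, and library pairs within a group differed beyond counting noise.

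The named genes were Pkd2, Pkd1, Myc, Yap1, Creb1, Mettl3, Mrc1 and Umod, up to 12 rising and 12 falling called genes with log2CPM of at least 1 and one sign in both states, called genes within 10 Mb of Pkd2, genes called on average but in neither state, up to 3 members of smallest p per list, and genes called in both states. Genes at adjusted p under 0.1, past the interaction test, or near Pkd2 at an unadjusted p under 0.05 in both states were added later. Members and 26 lists were chosen with earlier results of these data known. Of 395 listed genes 3 were not tested. Alternatives were limma-trend (limma 3.58.1, prior count 3, library totals), DESeq2 1.42.0, other scalings, cutoffs and thresholds, Xist as a covariate, the average of group means, and leaving out each mouse. The fits were tested on simulated data.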

Additional observations from a re-analysis of the deposited data

Results flagged for a closer look

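The deletion effect differed between the states, by the interaction test of edgeR's quasi-likelihood fit, in 3 genes, each at an adjusted p of 0.0359, so that their average describes neither state. Wfdc15b, a gene of the whey acidic protein family, had a log2 fold change of -0.13 in noncystic and 0.83 in cystic kidneys, a difference of 0.96 (standard error 0.14). Ppp1r1a, an inhibitor of protein phosphatase 1, had -0.11 and 0.80, a difference of 0.92 (0.13). H2-Ab1, of MHC class II, had -0.0026 and -1.46, a difference of -1.46 (0.22). None of these 3 genes passed the threshold of the average effect in the additive model (adjusted p = 0.293, 0.271 and 0.182), and all 3 did in the average of group means. DESeq2 called 134 genes by the interaction test, and edgeR 2053 at an unadjusted p under 0.05. The count of 3 depended on single mice: none passed without mouse 19, 23, 24, 27 or 29, 1 without mouse 21 or 28, 8 without mouse 20, 10 without mouse 22, 61 without mouse 25, 48 without mouse 26 and 57 without mouse 30.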

How the results depend on the processing

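Pkd2 and Zfp605 kept their direction and call in 22 alternatives of the fit, scaling, cutoff, adjusted p and mice, but Pkd2, at 38.3% more mRNA, is not among the genes of 1.5-fold or more. Of 2539 values of 116 named genes, 2312 kept direction and side of the threshold, 197 passed it newly, 20 lost it and 10 changed sign. With 3 mice a group, the median standard error of a noncystic effect was 0.113 on the log2 scale, against 0.081 on average. The additive model counts a state difference as spread, and the cause of the changes below was not tested.

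The average effect (5 genes) called 485 with DESeq2, 812 with no cutoff, 8 at 10 or more counts in every mouse, 109 by the average of group means, and 2 each at an adjusted p under 0.01 and at 1.5-fold or more. With the same sign in both states these were 484, 747, 8, 100, 2 and 2. Limma-trend also called 5, of which 4 were the same genes. Without single mice the average effect and its same-sign count both ran from 2 (mice 27 and 29) to 71 (mouse 21), with 38 without mouse 22 and 3 without mouse 19, 23 or 30. In noncystic kidneys (1 gene) DESeq2 called 3, no cutoff 124, and single mice gave 0 (mice 19 and 22) to 2 (mice 21 and 28). In cystic kidneys (549) the counts were 1128 with DESeq2, 1639 with no cutoff, 119 at an adjusted p under 0.01, 315 at 1.5-fold or more, and 118 (mouse 29) to 861 (mouse 25) without single mice, with 130 without mouse 27 and 127 without mouse 28. The interaction (3) gave 9 with limma-trend, 134 with DESeq2, 8 with library totals, 566 with no cutoff, 12 at 10 or more counts, 0 with filterByExpr, 15 with Xist, 0 at an adjusted p under 0.01, and 0 (mice 19, 23, 24, 27 and 29) to 61 (mouse 25) without single mice, with 48 without mouse 26 and 57 without mouse 30. The test in both states (0 genes, 224 at an unadjusted p under 0.05) gave 2 with DESeq2 and 25 with no cutoff.

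Mettl3 changed sign with library totals (0.0038) and ran from -0.072 to 0.031 without single mice. Without mouse 30 the adrenal genes changed sign, so that Cyp11b2 ran from -1.78 to 6.55, Cyp11a1 from -1.53 to 6.64 and Cyp11b1 from -2.90 to 6.93, and Fabp4 ran from -0.26 to 0.037 with mouse 20 left out at the upper end. No paired analysis was possible because the groups share no replicate number.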
